A study of Mus musculus with 12 samples.

Results

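The 39 genes described here encode cathepsins, other lysosomal hydrolases, proteins of the lysosomal membrane and 2 transcription factors that control lysosomal genes. They were taken from a list of gene names, and all 39 were found among the 54146 gene identifiers of the count tables. By role they comprise 10 cysteine cathepsins and legumain, 3 other proteases, 9 glycosidases, 2 sulfatases, 7 lipid enzymes and lipid transporters, 6 membrane proteins and cofactors, and the 2 transcription factors. A filter on low counts kept 35 of the 39 for testing, beside 14283 of all genes. Ctsh, Ctsk, Ctss and Hexa did not pass it.

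RNA was sequenced in 12 libraries from BMEL cells, a line of bipotential mouse embryonic liver cells that can form hepatocytes and bile duct cells. The 4 groups of 3 libraries were Cdk8 -/- cells transformed by H-RasG12V (Cdk8 knockout), Cdk19 -/- cells transformed by H-RasG12V (Cdk19 knockout), wild-type cells transformed by H-RasG12V (RasG12V) and wild-type cells with no transformation (untransformed). All came from the line isolated from a CDK8F/F mouse and grew exponentially on collagen in serum with insulin, IGFII and EGF, so both knockouts also carry the H-RasG12V change. Libraries of a group are not said to come from separate cultures or clones, and p-values therefore measure a spread between libraries that may be technical. Cdk8 and Cdk19 are the alternative kinases of the Mediator complex, which links transcription factors to RNA polymerase II.

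Lysosomes are acidic compartments in which hydrolases break down protein, glycan and lipid delivered by endocytosis and autophagy. Most of these hydrolases are made in the endoplasmic reticulum as inactive precursors, receive a mannose 6-phosphate tag and are carried to the lysosome, where acid and other proteases activate them. TFEB and its relative TFE3 enter the nucleus when mTORC1 is inactive and bind promoter elements around the letters CACGTG that many lysosomal genes share. In liver cells the compartment recycles nutrients and lipids, and cathepsins can also be secreted.

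Gene counts came to between 24823560 and 36879661 per library, and 3 counts, the limit used for a gene without reads, equal 0.0813 to 0.121 CPM (gene counts scaled to a common library size, TMM). Hras reached 451 ± 6.07 CPM in Cdk8 knockout, 422 ± 18.7 CPM in Cdk19 knockout and 453 ± 123 CPM in RasG12V cells. In untransformed cells it had 50.0 ± 8.57 CPM (SD, n = 3 each). Cdk8 averaged 42.8 CPM in Cdk8 knockout, 55.0 CPM in Cdk19 knockout, 54.5 CPM in RasG12V and 46.3 CPM in untransformed cells. Cdk19 averaged 63.9, 49.8, 75.2 and 87.8 CPM in the same order. Both deleted genes thus kept many reads, and counts over whole genes cannot check the kinase deletions. Replicate 3 of RasG12V and replicate 3 of untransformed cells stood apart from the other libraries of their groups. The chi-square statistic between libraries averaged 84.6 and 92.6 per gene between RasG12V replicate 3 and its fellows, against 4.56 between RasG12V replicates 1 and 2. For untransformed replicate 3 it was 55.0 and 56.0, against 8.02 between replicates 1 and 2, and in the knockout groups it lay between 9.64 and 19.2. No pair was alike within sampling noise, and results that rest on both libraries are given with and without them.

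Markers of hepatic progenitor and epithelial cells summed to 7456 to 8504 CPM in Cdk8 knockout, 6900 to 7980 CPM in Cdk19 knockout and 6678 to 9504 CPM in RasG12V libraries, against 8540 to 10110 CPM in untransformed libraries, mostly from Krt18 and Krt8. Epcam, one of these markers, stayed at or below 0.211 CPM in every library. Macrophages express many of the lysosomal genes strongly, and 12 macrophage and leukocyte markers summed to 40.2 to 47.1 CPM in Cdk8 knockout, 34.6 to 38.7 CPM in Cdk19 knockout and 33.7 to 60.5 CPM in RasG12V, against 36.2 to 46.0 CPM in untransformed libraries. Most of that sum was Cd14, which gave 29.4 to 52.5 CPM, while Adgre1 had no read in any library and 3 of the 12 markers were at 0 throughout. Osteoclast markers summed to at most 0.201 CPM, endothelial markers to at most 0.669 CPM, and stellate cell and fibroblast markers to at most 2.34 CPM. Some markers moved with transformation at low levels. In RasG12V cells Csf1r, Pdgfra and Cdh5 were higher by log2 fold changes of 1.43, 1.59 and 2.35, with at most 0.754, 1.88 and 0.482 CPM in any RasG12V library. Of 11 tested hepatic markers 3 rose there (Sox9, Afp and Spp1) and 6 fell, and Alb had at most 0.0603 CPM in RasG12V libraries, against 1.73 to 4.12 CPM in untransformed libraries. The part of these markers in the lysosomal values was not tested.

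The letters CACGTG were looked for on both strands in RefSeq promoter windows (GRCm38.p6), from 250 bases before to 50 bases after each start site. Of the 39 genes, 36 had a window, and Ctsb, Ctsh and Npc1 are named only. CACGTG occurred in a window of 11 of these 36 genes, and in 26.19% of their 42 windows against 7.15% of all 32851 windows. The 11 genes were Ctsa, Ctsd, Ctsf, Ctsl, Gaa, Glb1, Lamp1, Lgmn, Mcoln1, Naglu and Sgsh. The longer TCACGTGA, which contains CACGTG, occurred in windows of Ctsa, Ctsd and Mcoln1, against 0.974% of all windows. The 4 windows below are shown because Ctsl and Ctsc had the largest increases in transformed cells, Sgsh was lower in RasG12V cells, and Lamp1 held the most matches with little difference between groups. Capitals mark CACGTG, and each window reads 5′ to 3′ on the gene's own strand.
Ctsl (chr13:64370471-64370770, minus strand): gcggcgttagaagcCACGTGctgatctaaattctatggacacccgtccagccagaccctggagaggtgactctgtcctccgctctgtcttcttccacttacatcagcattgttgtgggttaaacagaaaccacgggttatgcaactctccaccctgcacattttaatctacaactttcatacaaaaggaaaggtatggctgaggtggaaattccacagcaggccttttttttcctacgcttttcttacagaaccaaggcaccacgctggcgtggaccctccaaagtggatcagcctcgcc
Ctsc (chr7:88277835-88278134, plus strand): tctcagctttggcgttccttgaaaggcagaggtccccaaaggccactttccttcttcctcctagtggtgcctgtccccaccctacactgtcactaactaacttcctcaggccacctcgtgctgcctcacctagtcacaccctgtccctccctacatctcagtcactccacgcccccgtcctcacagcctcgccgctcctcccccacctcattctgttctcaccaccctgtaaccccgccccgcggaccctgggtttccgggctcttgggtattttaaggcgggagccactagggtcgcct
Lamp1 (chr8:13158911-13159210, plus strand): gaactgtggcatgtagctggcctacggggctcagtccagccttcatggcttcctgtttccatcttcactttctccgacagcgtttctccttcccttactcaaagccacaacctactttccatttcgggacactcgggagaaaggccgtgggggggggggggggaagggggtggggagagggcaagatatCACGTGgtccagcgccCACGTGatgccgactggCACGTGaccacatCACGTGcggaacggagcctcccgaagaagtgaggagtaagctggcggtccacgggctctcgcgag
Sgsh (chr11:119355461-119355760, minus strand): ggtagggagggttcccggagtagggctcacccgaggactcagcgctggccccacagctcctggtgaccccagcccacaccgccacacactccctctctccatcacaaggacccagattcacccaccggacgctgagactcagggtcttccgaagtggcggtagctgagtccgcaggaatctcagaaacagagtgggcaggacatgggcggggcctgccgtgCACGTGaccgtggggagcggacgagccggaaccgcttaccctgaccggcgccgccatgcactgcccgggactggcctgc

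The Lamp1 window held 4 matches, which begin 61, 45, 28 and 15 bases before the start site. Ctsl had a single match 236 bases before its start site and Sgsh had 1 match 29 bases before it. No CACGTG stood in the Ctsc window. A match of letters is a description of the window and not a measured binding site.

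Divided by exon length and scaled to a common total (TPM), the levels spanned several orders of magnitude among the genes. Psap, the precursor of the saposins that help degrade sphingolipids, ranked first in untransformed cells at 885 ± 56.9 TPM, followed by Lamp1 at 716 ± 23.6 TPM and Ctsd at 498 ± 30.8 TPM (SD, n = 3 each). Ctsl took rank 1 in RasG12V cells with 1251 ± 174 TPM, against rank 4 and 409 ± 32.0 TPM in untransformed cells. Exon length here joins all annotated exons of a gene, 6489 bases for Ctsl and 2744 for Psap, and the ranks depend on it. In CPM, which ignores length, Ctsl had the highest mean of these genes in untransformed cells too, at 754, followed by Psap at 690. At the low end, Idua and Gusb had 0.243 and 0.124 TPM in RasG12V cells, against 0.609 and 0.273 TPM in untransformed cells. These low levels rest on 3 to 28 reads per library.

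**Figure D1:**
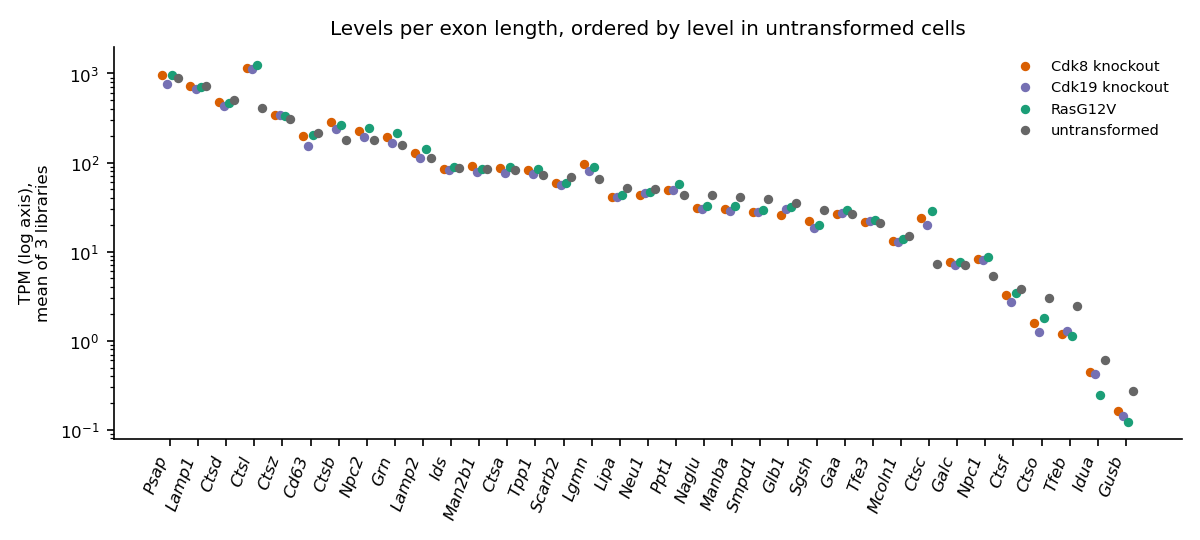
Mean level per exon length (TPM, log axis) of the lysosomal genes in the 4 groups of 3 libraries, ordered by the level in untransformed cells. Ctsl holds rank 1 in RasG12V cells and rank 4 in untransformed cells, and Idua and Gusb are the lowest of those tested. The ranks depend on the exon length used, and in CPM Ctsl was highest in both groups.

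Several members lacked reads altogether or nearly so. Ctss, a cathepsin typical of antigen-presenting cells, had 0 counts in all 12 libraries, which allows at most 0.0813 to 0.121 CPM depending on the library. Ctsk, the collagen-degrading cathepsin of osteoclasts, had 4 to 15 counts per library, and Ctsh had 0 to 5. Hexa, a glycosidase gene of ganglioside breakdown, was listed with 3 reads over the 12 libraries. Reads that map to several places or to overlapping genes are not in these counts. In the GENCODE M21 annotation no gene on the same strand overlaps Hexa, and the annotation release used for counting is not given. The part of such reads, or of that annotation, in the Hexa value was not tested.

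To ask what Ras transformation did to the lysosomal genes, and what remained of it in the knockouts, each transformed group was compared with untransformed cells. With edgeR's quasi-likelihood test and a Benjamini-Hochberg adjusted p under 0.05 over all genes, 9 of 35 lysosomal genes changed in RasG12V cells, 5 higher and 4 lower, where 23.4% of all genes were called. In Cdk8 knockout cells 9 changed, 5 higher and 4 lower, beside 24.4% of all genes, and in Cdk19 knockout cells 13 changed, 5 higher and 8 lower, beside 25.3%. The share in RasG12V cells, 25.71% of the lysosomal genes, was thus close to that of all genes. The median log2 fold change of the 35 genes was 0.01 in Cdk8 knockout, -0.13 in Cdk19 knockout and 0.00 in RasG12V cells, against -0.01, 0.00 and 0.00 for all genes. The 3 comparisons share the untransformed libraries.

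The number of calls depended on the libraries that stood apart. They were picked by their deviation in these same data. Leaving both out tends to narrow the fitted spread, and only replicates 1 and 2 then remain in their groups. Calls made without them, here and below, are therefore no independent support for a gene. Without untransformed replicate 3 and RasG12V replicate 3, 36 members were tested, since Ctsk then passed the filter. Among them 21 changed in RasG12V cells, 9 higher and 12 lower, where 40% of all genes were called. The same fit called 22 members in Cdk8 knockout cells, 12 higher and 10 lower, beside 42.2% of all genes, and 20 in Cdk19 knockout cells, 10 in each direction, beside 43.6%. Leaving out RasG12V replicate 3 alone gave 17 members in RasG12V cells, 15 in Cdk8 knockout cells and 14 in Cdk19 knockout cells. The share of all genes called in that fit is not reported here.

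**Figure D2:**
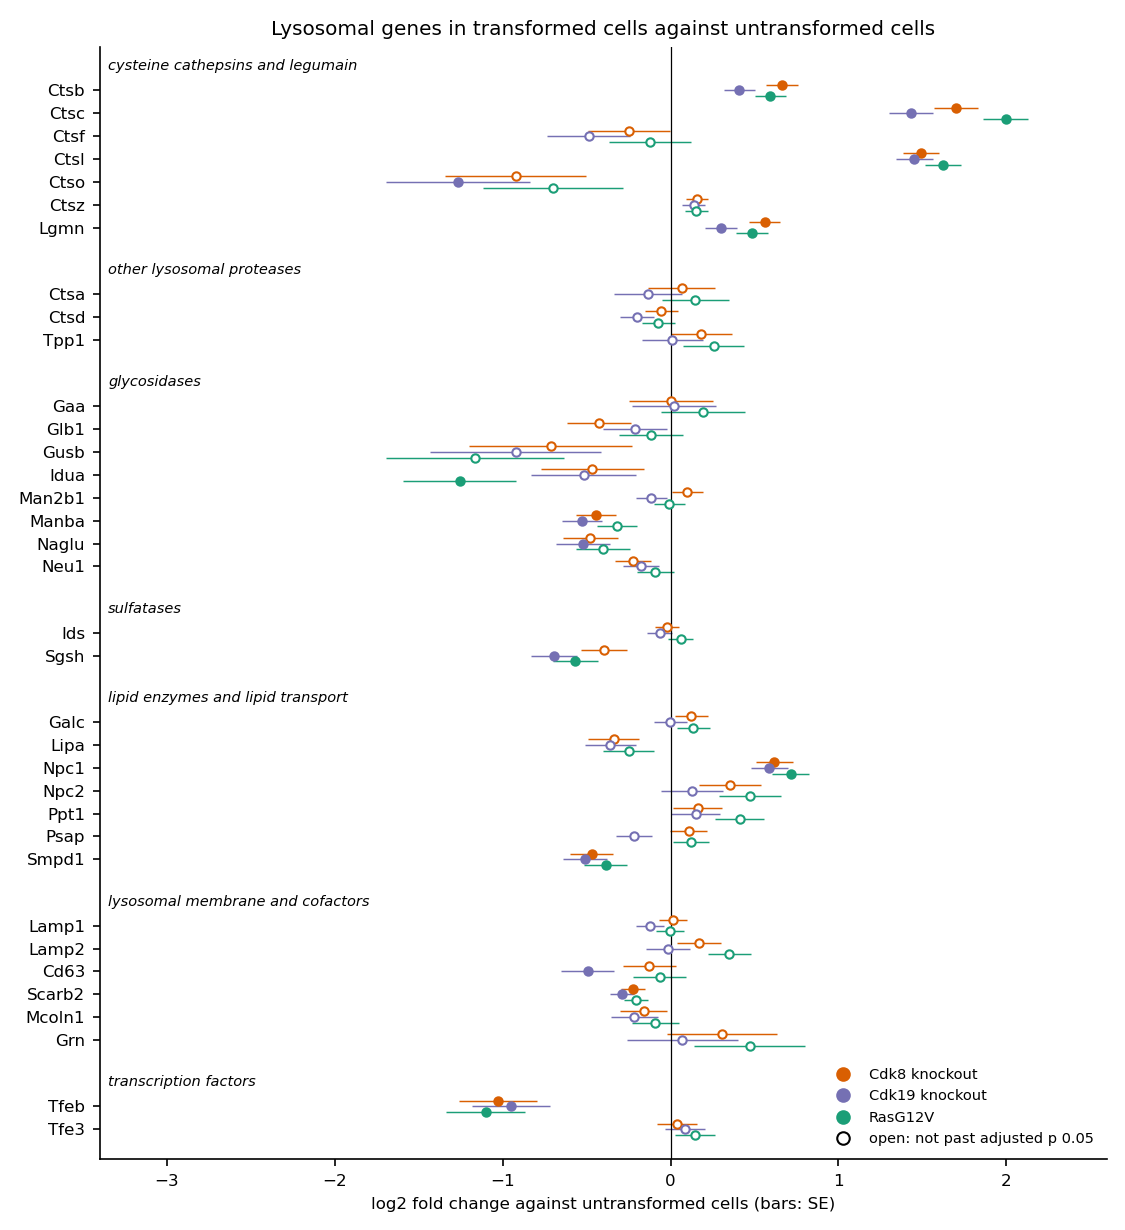
Log2 fold change against untransformed cells (horizontal axis, bars are standard errors) of the 35 tested lysosomal genes in Cdk8 knockout, Cdk19 knockout and RasG12V cells, grouped by role. Filled points passed an adjusted p of 0.05, and Ctsc and Ctsl lie farthest to the right at 1.43 to 1.997, while Tfeb lies near -1 in all 3 groups.

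Among cysteine cathepsins and legumain, 4 of 7 tested genes rose in every transformed group, where 23.4% to 25.3% of all genes were called in either direction. Ctsl, an endopeptidase that degrades proteins in lysosomes and can be secreted, was the most abundant of them. It had 2046, 2314 and 2005 CPM in Cdk8 knockout libraries, 2109, 2107 and 1979 CPM in Cdk19 knockout libraries and 2516, 2473 and 1987 CPM in RasG12V libraries, against 699.5, 832 and 731 CPM in untransformed libraries (replicates 1, 2 and 3). Every transformed library lay well above every untransformed library, and the transformed groups overlapped each other. Log2 fold changes were 1.49 (SE 0.11), 1.45 (SE 0.11) and 1.62 (SE 0.11) in Cdk8 knockout, Cdk19 knockout and RasG12V cells, with adjusted p-values of 2.06e-06, 2.56e-06 and 8.27e-07 from edgeR. The gene lies on chromosome 13 (64359337 to 64370890, minus strand, GRCm38) and shares its strand with the gene model Gm49230, so reads in the overlap are not counted for it.

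Ctsc encodes a dipeptidyl peptidase that activates serine proteases by trimming their ends. Its levels were 37.8, 39.98 and 39.5 CPM in Cdk8 knockout, 28.9, 31.7 and 36.8 CPM in Cdk19 knockout and 42.6, 42.5 and 58.8 CPM in RasG12V libraries, against 11.8, 12.3 and 12.1 CPM in untransformed libraries. The untransformed libraries were nearly alike and all transformed libraries stood above them, with RasG12V replicate 3 the highest of all. The log2 fold change was 1.70 (SE 0.13) in Cdk8 knockout, 1.43 (SE 0.13) in Cdk19 knockout and 1.997 (SE 0.13) in RasG12V cells, where the mean was 3.99-fold that of untransformed cells (adjusted p = 8.23e-07, edgeR). Without the libraries that stood apart, the value in RasG12V cells was 1.81 for Ctsc and 1.69 for Ctsl. Ctsc lies on chromosome 7 (88278085 to 88310888, plus strand).

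Ctsb, a cysteine protease that acts both inside chains and at their ends, had 469.8, 507 and 484 CPM in Cdk8 knockout, 405, 396 and 423 CPM in Cdk19 knockout and 425, 430.3 and 537 CPM in RasG12V libraries, against 322, 311 and 289 CPM in untransformed libraries. No transformed library fell within the untransformed range. Log2 fold changes were 0.66 (SE 0.09), 0.41 (SE 0.09) and 0.59 (SE 0.09) in Cdk8 knockout, Cdk19 knockout and RasG12V cells, all past the threshold. In RasG12V cells it was 0.42 without the libraries that stood apart.

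Lgmn encodes legumain, which cuts after asparagine and processes other cathepsins. It had 59.4, 69.2 and 61.8 CPM in Cdk8 knockout, 53.8, 50.29 and 54.8 CPM in Cdk19 knockout and 55.8, 57.5 and 67.4 CPM in RasG12V libraries, against 43.1, 45.9 and 40.1 CPM in untransformed libraries. The groups did not overlap with untransformed cells, and the Cdk19 knockout libraries were the lowest among transformed ones. Lgmn rose by a log2 fold change of 0.56 (SE 0.09) in Cdk8 knockout, 0.30 (SE 0.09) in Cdk19 knockout and 0.49 (SE 0.09) in RasG12V cells. The call in Cdk19 knockout cells (adjusted p = 0.033, edgeR) was lost without untransformed replicate 1 or 3, Cdk8 knockout replicate 3, or Cdk19 knockout replicate 1 or 3, where adjusted p was 0.057 to 0.116 and the log2 fold change 0.25 to 0.30.

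Ctso, a little-studied cysteine cathepsin, went the other way. Its levels were 2.02, 2.31 and 2.56 CPM in Cdk8 knockout, 1.73, 1.66 and 2.04 CPM in Cdk19 knockout and 1.31, 1.31 and 5.28 CPM in RasG12V libraries, against 4.79, 4.08 and 4.21 CPM in untransformed libraries. RasG12V replicate 3 was the highest library of all, whereas replicates 1 and 2 of that group were the lowest. A log2 fold change of -1.27 (SE 0.43) passed the threshold in Cdk19 knockout cells (adjusted p = 0.048, edgeR), while -0.92 (SE 0.42) in Cdk8 knockout and -0.70 (SE 0.42) in RasG12V cells did not. With both libraries that stood apart left out, Ctso was lower in all 3 transformed groups, by log2 fold changes of -0.95, -1.30 and -1.77 in Cdk8 knockout, Cdk19 knockout and RasG12V cells. Leaving out RasG12V replicate 3 alone gave -1.72 in RasG12V cells (adjusted p = 2.34e-05, edgeR). Leaving out any single library outside the RasG12V group ended the call in Cdk19 knockout cells, as did upper quartile scaling (edgeR adjusted p of 0.055).

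Neither of the remaining cathepsins of this class passed the threshold. Ctsz, a carboxypeptidase, had 137 to 142 CPM in Cdk8 knockout, 134 to 147 CPM in Cdk19 knockout and 129 to 145 CPM in RasG12V libraries, against 125 to 126 CPM in untransformed libraries, with log2 fold changes of 0.14 to 0.16. Ctsf stayed between 3.46 and 7.58 CPM over the 12 libraries. Both replicate 3 libraries that stood apart were the highest for Ctsf.

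**Figure D3:**
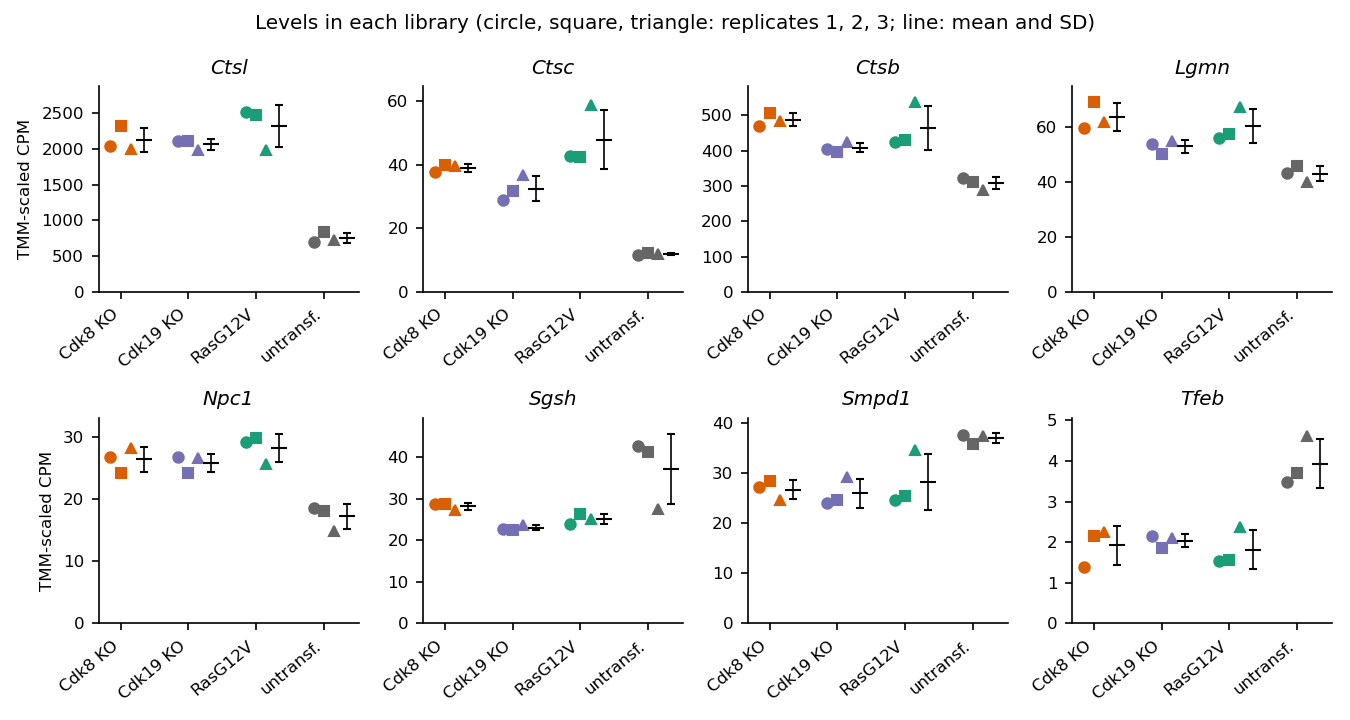
TMM-scaled CPM in each library (points, replicates 1 to 3 as circle, square and triangle) with mean and SD (lines) for 8 lysosomal genes in Cdk8 knockout (KO), Cdk19 KO, RasG12V and untransformed (untransf.) cells. Ctsl, Ctsc, Ctsb, Lgmn and Npc1 lie higher in every transformed library than in any untransformed one, and Tfeb and Smpd1 lie lower.

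With all libraries none of the 3 other lysosomal proteases passed the threshold in a comparison with untransformed cells. Ctsd, the main aspartic protease of lysosomes, averaged 320.3 ± 27.4 CPM in Cdk8 knockout, 290.0 ± 13.8 CPM in Cdk19 knockout and 316 ± 41.2 CPM in RasG12V cells, against 333 ± 20.8 CPM in untransformed cells (SD, n = 3 each). Ctsa, a serine carboxypeptidase that also protects Neu1 and Glb1 in a complex, had 89.8, 100.3 and 177 CPM in RasG12V libraries, against 106, 98.3 and 127 CPM in untransformed libraries. The high value was RasG12V replicate 3. Tpp1, a tripeptidyl peptidase, had log2 fold changes of 0.18 (SE 0.18), 0.01 (SE 0.18) and 0.26 (SE 0.18) in Cdk8 knockout, Cdk19 knockout and RasG12V cells. Without both libraries that stood apart Tpp1 had 0.38, 0.20 and 0.19, past the threshold in both knockouts (adjusted p-values of 0.000266 and 0.027 from edgeR) and not in RasG12V cells.

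Of the 8 tested glycosidases, 1 fell in RasG12V cells, 1 in Cdk8 knockout cells and 2 in Cdk19 knockout cells, and none rose. In those comparisons 23.4%, 24.4% and 25.3% of all genes were called. Manba, the beta-mannosidase that finishes the breakdown of N-linked glycans, had 59.2, 61.9 and 59.2 CPM in Cdk8 knockout, 57.9, 54.05 and 58.1 CPM in Cdk19 knockout and 57.6, 62.7 and 76.2 CPM in RasG12V libraries, against 89.99, 88.2 and 67.1 CPM in untransformed libraries. Both replicate 3 libraries that stood apart lay between the rest of the 2 groups, so RasG12V overlapped untransformed cells. The log2 fold change was -0.44 (SE 0.12) in Cdk8 knockout and -0.53 (SE 0.12) in Cdk19 knockout cells, which passed, and -0.32 (SE 0.12) in RasG12V cells, which did not. In RasG12V cells the value was -0.58 without both libraries (adjusted p = 2.23e-06, edgeR). The call in Cdk8 knockout cells was lost without untransformed replicate 1 or 2 or any single Cdk8 knockout library, with adjusted p between 0.051 and 0.076.

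Naglu, which removes N-acetylglucosamine from heparan sulfate, followed a like order. Its levels were 22.8, 24.0 and 23.3 CPM in Cdk8 knockout, 21.7, 22.1 and 24.3 CPM in Cdk19 knockout and 20.08, 20.9 and 32.9 CPM in RasG12V libraries, against 36.8, 32.1 and 28.8 CPM in untransformed libraries. RasG12V replicate 3 lay inside the untransformed range and the other transformed libraries below it. The difference passed in Cdk19 knockout cells (log2 fold change -0.52, SE 0.16) and not in Cdk8 knockout (-0.48, SE 0.16) or RasG12V cells (-0.40, SE 0.16). Without both libraries that stood apart it was -0.57, -0.61 and -0.77 in Cdk8 knockout, Cdk19 knockout and RasG12V cells, all past the threshold. The call in Cdk19 knockout cells was kept without untransformed replicate 3 or any single RasG12V library and lost without any of the other 8.

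Idua, which removes iduronic acid from heparan and dermatan sulfate, was close to the limit of detection. It had 15, 15 and 21 reads in Cdk8 knockout, 16, 13 and 15 in Cdk19 knockout and 7, 5 and 14 in RasG12V libraries, against 23, 17 and 28 in untransformed libraries. Scaled to library size, every RasG12V library lay below every untransformed library, and the log2 fold change was -1.25 (SE 0.34, adjusted p = 0.017, edgeR). That call was lost without RasG12V replicate 1 (-1.14), RasG12V replicate 2 (-1.06) or untransformed replicate 1 (-1.18). It was also lost when edgeR fitted only RasG12V and untransformed libraries (adjusted p of 0.082).

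The other glycosidases did not pass in the fit of all libraries. Log2 fold changes in RasG12V cells were 0.19 for Gaa, the acid alpha-glucosidase that breaks down glycogen, -0.11 for the beta-galactosidase Glb1, -0.09 for the sialidase Neu1 and -0.01 for the alpha-mannosidase Man2b1. Glb1 became lower without RasG12V replicate 3 (-0.41 in Cdk8 knockout cells, -0.44 in RasG12V cells). With both libraries that stood apart left out, Gaa had 0.26 in Cdk8 knockout and 0.28 in Cdk19 knockout cells, against 0.01 and 0.02 with all libraries, and Neu1 had -0.23 in Cdk8 knockout cells, all 3 then past the threshold. Gusb, the beta-glucuronidase, had 3 to 12 reads per library.

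Of the sulfatases, Sgsh, the sulfamidase of heparan sulfate breakdown, differed between groups. It had 28.6, 28.6 and 27.2 CPM in Cdk8 knockout, 22.7, 22.5 and 23.7 CPM in Cdk19 knockout and 23.9, 26.3 and 25.02 CPM in RasG12V libraries, against 42.6, 41.3 and 27.4 CPM in untransformed libraries. Untransformed replicate 3 was far below its fellows and inside the range of the Cdk8 knockout libraries. The gene fell by a log2 fold change of -0.69 (SE 0.14) in Cdk19 knockout and -0.57 (SE 0.14) in RasG12V cells, while -0.40 (SE 0.14) in Cdk8 knockout cells missed the threshold (adjusted p = 0.0502, edgeR). Without both libraries that stood apart the values were -0.59, -0.88 and -0.76 in Cdk8 knockout, Cdk19 knockout and RasG12V cells, all past it. With only the 2 groups fitted, RasG12V against untransformed cells gave an adjusted p of 0.094. Ids, the iduronate sulfatase, kept between 109.6 and 132 CPM in all 12 libraries.

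Among lipid enzymes and transporters, Npc1 rose and Smpd1 fell in each transformed group. Npc1, the membrane protein that moves cholesterol out of lysosomes, had 26.7, 24.3 and 28.3 CPM in Cdk8 knockout, 26.7, 24.2 and 26.7 CPM in Cdk19 knockout and 29.2, 29.8 and 25.7 CPM in RasG12V libraries, against 18.6, 18.2 and 14.8 CPM in untransformed libraries. All transformed libraries lay above all untransformed ones. The log2 fold changes were 0.62 (SE 0.11), 0.59 (SE 0.11) and 0.72 (SE 0.11) in Cdk8 knockout, Cdk19 knockout and RasG12V cells, with adjusted p-values of 0.00123, 0.00168 and 0.000484 from edgeR.

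Npc2, the soluble partner that hands cholesterol to Npc1, had 342, 364 and 346 CPM in Cdk8 knockout, 277, 294.5 and 327 CPM in Cdk19 knockout and 329, 321 and 489 CPM in RasG12V libraries, against 235, 226 and 360.0 CPM in untransformed libraries. Both libraries that stood apart were the highest of their groups, and the groups overlapped. The log2 fold change of 0.47 (SE 0.18) in RasG12V cells did not pass with all libraries. Without those 2 it was nearly the same at 0.48, with a smaller SE of 0.07 (adjusted p = 3.53e-05, edgeR).

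Smpd1, the acid sphingomyelinase that releases ceramide, had 27.2, 28.4 and 24.7 CPM in Cdk8 knockout, 24.0, 24.8 and 29.3 CPM in Cdk19 knockout and 24.7, 25.5 and 34.8 CPM in RasG12V libraries, against 37.7, 35.9 and 37.6 CPM in untransformed libraries. No library of the transformed groups reached the untransformed range. Its log2 fold change was -0.47 (SE 0.13), -0.51 (SE 0.13) and -0.39 (SE 0.13) in Cdk8 knockout, Cdk19 knockout and RasG12V cells. In RasG12V cells the adjusted p was 0.047 from edgeR. Leaving out any single library other than RasG12V replicate 3 or Cdk19 knockout replicate 3 ended the call, as did upper quartile scaling (0.068) and a filter at 1 CPM (0.053). In Cdk8 knockout cells the call was lost without untransformed replicate 1 or Cdk8 knockout replicate 1 or 3, and in Cdk19 knockout cells without Cdk19 knockout replicate 1 or 2, with adjusted p-values of 0.054 to 0.076.

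The other lipid genes did not pass with all libraries. Lipa, the acid lipase for cholesteryl esters and triglycerides, had log2 fold changes of -0.34, -0.36 and -0.25 in Cdk8 knockout, Cdk19 knockout and RasG12V cells, and -0.41, -0.43 and -0.56 without both libraries that stood apart. Ppt1, which removes palmitate from proteins, had 0.16, 0.15 and 0.41, and 0.24, 0.23 and 0.25 without them, all 3 then past the threshold. Psap and the galactosylceramidase gene Galc differed from untransformed cells by log2 fold changes of at most 0.22 in size. Without both libraries Galc had 0.24 in Cdk8 knockout and 0.23 in RasG12V cells, and Psap had -0.27 in Cdk19 knockout cells, all 3 past the threshold.

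Of the 6 membrane proteins and cofactors none passed in RasG12V cells with all libraries, and 4 did without both libraries that stood apart (Lamp2, Cd63, Scarb2 and Mcoln1). Of all genes 23.4% and 40% were called in those fits. Scarb2, a membrane protein that carries an enzyme to lysosomes, had 105, 105 and 106 CPM in Cdk8 knockout, 103, 102 and 96.9 CPM in Cdk19 knockout and 103, 99.5 and 118 CPM in RasG12V libraries, against 122, 122 and 126 CPM in untransformed libraries. All 9 transformed libraries lay below the untransformed ones. The differences were small, with log2 fold changes of -0.22 (SE 0.07), -0.29 (SE 0.07) and -0.21 (SE 0.07) in Cdk8 knockout, Cdk19 knockout and RasG12V cells and adjusted p-values of 0.039, 0.010 and 0.056 from edgeR. In Cdk8 knockout cells, leaving out any single library other than RasG12V replicate 3 or Cdk19 knockout replicate 3 ended the call, and under upper quartile scaling the edgeR adjusted p was 0.070. Without both libraries that stood apart Scarb2 had -0.22, -0.28 and -0.29 in Cdk8 knockout, Cdk19 knockout and RasG12V cells, all past the threshold.

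Cd63, a tetraspanin of late endosomes and lysosomes, had 200.5, 222 and 200.5 CPM in Cdk8 knockout, 159.8, 162 and 161 CPM in Cdk19 knockout and 182, 177 and 292 CPM in RasG12V libraries, against 218, 213 and 249.6 CPM in untransformed libraries. The Cdk19 knockout libraries were the lowest 3 of the 12. Cd63 fell by a log2 fold change of -0.49 (SE 0.16) in Cdk19 knockout cells (adjusted p = 0.036, edgeR), against -0.13 (SE 0.16) in Cdk8 knockout and -0.06 (SE 0.16) in RasG12V cells, which did not pass. Leaving out any single library outside the RasG12V group ended that call, as did upper quartile scaling (edgeR adjusted p of 0.055). Without both libraries that stood apart it was -0.43 in Cdk19 knockout and -0.28 in RasG12V cells, both past the threshold (adjusted p-values of 9.77e-06 and 0.00223 from edgeR), and -0.06 in Cdk8 knockout cells, which did not pass.

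Lamp1 and Lamp2, the main glycoproteins of the lysosomal membrane, differed in their values. Lamp1 averaged 549 ± 36.1 CPM in Cdk8 knockout, 500.4 ± 24.0 CPM in Cdk19 knockout and 544 ± 52.9 CPM in RasG12V cells, against 544.5 ± 10.8 CPM in untransformed cells (SD, n = 3 each), and its log2 fold changes were 0.01, -0.12 and 0.00. Lamp2 had a log2 fold change of 0.35 (SE 0.13) in RasG12V cells that did not pass with all libraries. Without both libraries that stood apart Lamp2 was higher in RasG12V cells (0.22) and in Cdk8 knockout cells (0.25). The calcium channel gene Mcoln1 had log2 fold changes of -0.16, -0.22 and -0.09 in Cdk8 knockout, Cdk19 knockout and RasG12V cells. Without both libraries they were -0.11, -0.17 and -0.27, and the value in RasG12V cells passed (adjusted p = 0.025, edgeR). Grn, the progranulin gene, had 0.31, 0.07 and 0.47 with all libraries and 0.64, 0.40 and 0.20 without them, then past the threshold in both knockouts.

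Tfeb, the transcription factor that drives lysosomal and autophagy genes, was lower in transformed cells. Its levels were 1.38, 2.14 and 2.25 CPM in Cdk8 knockout, 2.15, 1.87 and 2.11 CPM in Cdk19 knockout and 1.53, 1.55 and 2.38 CPM in RasG12V libraries, against 3.48, 3.71 and 4.62 CPM in untransformed libraries. No transformed library reached the untransformed range. The log2 fold change was -1.03 (SE 0.23), -0.95 (SE 0.23) and -1.10 (SE 0.23) in Cdk8 knockout, Cdk19 knockout and RasG12V cells, and -0.90, -0.83 and -1.24 without both libraries that stood apart. Tfe3, which binds the same letters, had 55.1, 58.3 and 55.4 CPM in Cdk8 knockout, 56.8, 56.9 and 60.8 CPM in Cdk19 knockout and 53.2, 53.9 and 74.9 CPM in RasG12V libraries, against 55.3, 50.05 and 59.1 CPM in untransformed libraries. Its groups overlapped, and no comparison passed. Per exon length Tfe3 stood at 22.8 TPM in RasG12V cells and 20.8 TPM in untransformed cells, against 1.12 and 2.45 TPM for Tfeb in those 2 groups.

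The genes with CACGTG in the promoter window and those without it were set side by side. In RasG12V cells 2 of the 11 genes with it rose (Ctsl and Lgmn), 1 fell (Sgsh) and 8 did not pass, and their median log2 fold change was -0.07. Of 22 tested genes with windows that lack it, 1 rose (Ctsc), 3 fell and 18 did not pass, with a median of 0.03. Of all genes 23.4% were called in that comparison. Ctsb and Npc1, which also rose, had no window and are in neither set. Lamp1, with the most matches of the windows shown above, had a log2 fold change of 0.00.

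As a share of all gene counts, the 39 genes gave 0.649%, 0.712% and 0.671% in Cdk8 knockout libraries, 0.611%, 0.598% and 0.633% in Cdk19 knockout libraries and 0.665%, 0.664% and 0.778% in RasG12V libraries, against 0.493%, 0.490% and 0.538% in untransformed libraries. Every transformed library stood above every untransformed one. Ctsl alone gave 0.213 ± 0.0163% in Cdk8 knockout, 0.207 ± 0.00522% in Cdk19 knockout and 0.230 ± 0.0275% in RasG12V cells, against 0.0759 ± 0.00638% in untransformed cells (SD, n = 3 each). The other 38 genes gave 0.465 ± 0.0185%, 0.407 ± 0.0230% and 0.473 ± 0.0933% in Cdk8 knockout, Cdk19 knockout and RasG12V cells, against 0.431 ± 0.0287% in untransformed cells. For these 38 genes the groups overlapped, and RasG12V replicates 1 and 2 (0.417% and 0.421%) lay within the untransformed range of 0.407% to 0.463%.

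**Figure D4:**
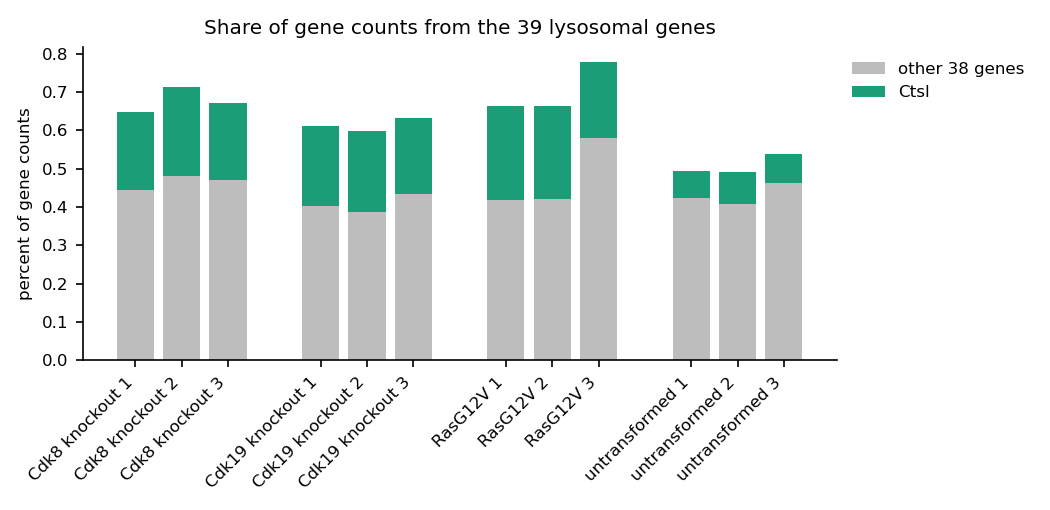
Percent of all gene counts that fell on the 39 lysosomal genes in each of the 12 libraries, with Ctsl in colour and the other 38 genes in grey. Total bars are taller in the 9 transformed libraries (0.598% to 0.778%) than in the untransformed ones (0.490% to 0.538%), and the grey parts overlap.

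RasG12V replicate 3 differed from its fellows in most lysosomal genes. Its log2 ratio to the mean of replicates 1 and 2 was above 0 for 30 of 35 tested members, with a median of 0.47, against 49.5% of all tested genes and a median of -0.01. Gusb, Ctsl, Npc1, Ids and Sgsh were the 5 below 0. Ctso had the largest ratio (2.01), followed by Grn (1.34). Grn, which encodes the secreted and lysosomal protein progranulin, had 170, 211 and 199.7 CPM in Cdk8 knockout, 158, 144 and 192 CPM in Cdk19 knockout and 139, 148 and 364 CPM in RasG12V libraries, against 129, 118 and 222 CPM in untransformed libraries. Untransformed replicate 3 was likewise the highest of its group for Grn, but over the 35 members its median log2 ratio was 0.04, with 22 above 0.

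Other genes set RasG12V replicate 3 apart as well. It had 313 CPM of Hras, against 509.7 and 537 CPM in RasG12V replicates 1 and 2. Cdk19 stood at 93.6 CPM there, against 64.7 and 67.2 CPM in those replicates. Of the 12 macrophage and leukocyte markers, Cd14 and Cd68 had 52.5 and 6.75 CPM in RasG12V replicate 3, against 29.4 to 31.5 and 3.13 to 3.19 CPM in replicates 1 and 2. Cd68 is also listed among the further lysosomal membrane proteins, so it does not mark macrophages alone. Adgre1 was at 0 in RasG12V replicate 3 too, and most of the other markers of that list are not reported for it. The part of any of these in the lysosomal values was not tested.

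**Figure D5:**
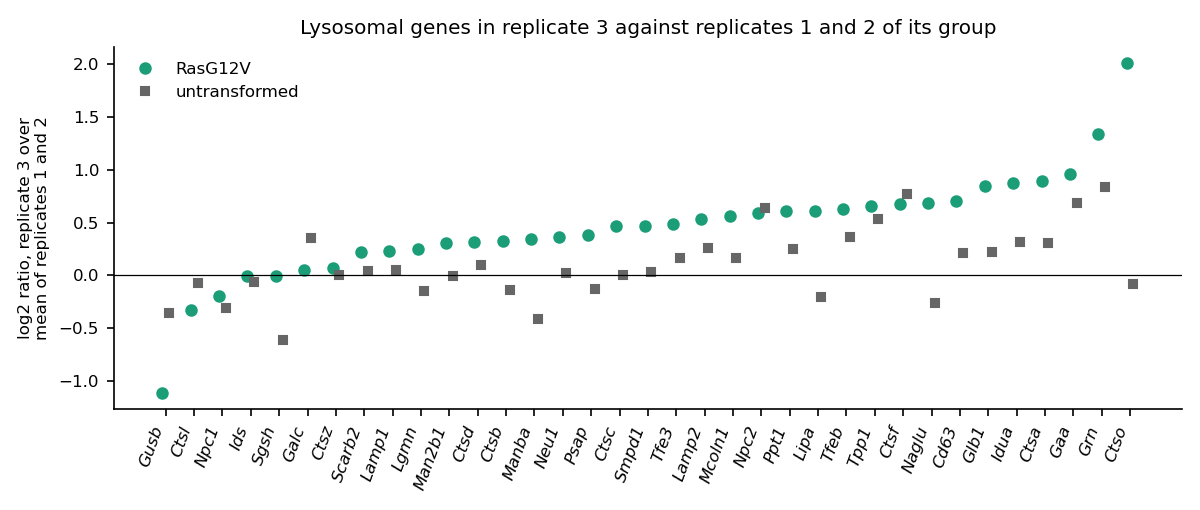
Log2 ratio of replicate 3 to the mean of replicates 1 and 2 of the same group for the tested lysosomal genes, in RasG12V (circles) and untransformed cells (squares). The RasG12V points lie above 0 for 30 of 35 genes, up to 2.01 for Ctso, and the untransformed points lie above 0 for 22.

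Whether loss of either kinase altered the lysosomal genes in transformed cells was asked by setting each knockout against RasG12V cells. With all libraries edgeR called 0 of 35 members in Cdk8 knockout cells, beside 0% of all genes, and 0 in Cdk19 knockout cells, beside 0.014%. At an unadjusted p under 0.05 there were 2 members in Cdk8 knockout cells (Ctsc and Idua) and 4 in Cdk19 knockout cells (Ctsc, Psap, Lamp2 and Cd63). The share of all genes at that unadjusted threshold is not reported here, so these counts have no background to be read against. DESeq2 called 0 and 1 (Ctsc), and limma-voom 0 and 0. The median log2 fold change was -0.08 in Cdk8 knockout and -0.13 in Cdk19 knockout cells, against -0.01 for all genes in both, and 10 and 3 of 35 members were above 0.

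Without the 2 libraries that stood apart, the signs of many members turned in Cdk8 knockout cells. The median became 0.13, with 30 of 36 members above 0, and edgeR called 0 of them beside 1.59% of all genes. The median and signs over all genes in that fit are not reported here, for either knockout. In Cdk19 knockout cells the median became -0.02, with 17 of 36 above 0, and 1 member was called beside 2.01% of all genes. That member was Ctsc, whose log2 fold change against RasG12V cells was -0.38 (adjusted p = 0.027, edgeR). With all libraries it was -0.56 (SE 0.13, adjusted p = 0.25, edgeR), and DESeq2 gave it an adjusted p of 0.024. The 3 Cdk19 knockout values of Ctsc, 28.9 to 36.8 CPM, lay below the 3 RasG12V values, 42.5 to 58.8 CPM, and the Cdk8 knockout values, 37.8 to 39.98 CPM, lay between them. Its difference between Cdk8 knockout and RasG12V cells was -0.30 (SE 0.13), which did not pass.

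The other genes that rose in RasG12V cells, and Tfeb, which fell there, were compared in the same way. Ctsl had log2 fold changes of -0.13 (SE 0.11) in Cdk8 knockout and -0.17 (SE 0.11) in Cdk19 knockout cells against RasG12V cells, and -0.23 and -0.27 without the libraries that stood apart. Npc1 had -0.10 (SE 0.11) and -0.13 (SE 0.11). Ctsb and Lgmn had 0.07 and 0.08 in Cdk8 knockout cells and -0.18 and -0.19 in Cdk19 knockout cells, each with an SE of 0.09. Tfeb had 0.08 (SE 0.24) and 0.15 (SE 0.24). None of these passed the threshold, which does not show that the levels were equal.

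Set directly against each other, the knockouts gave a small offset in the same direction for most lysosomal genes. In Cdk8 knockout against Cdk19 knockout cells 30 of 35 members (85.7%) had a log2 fold change above 0, against 48.8% of all genes, with a median of 0.13 against 0.00. edgeR called none of them beside 0.105% of all genes, and DESeq2 and limma-voom also called 0. At an unadjusted p under 0.05 there were 5 (Ctsb, Lgmn, Man2b1, Psap and Cd63), and the share of all genes there is not reported here. Glb1, Neu1, Gaa, Tfeb and Tfe3 were the 5 not above 0. A shift of this kind also occurred between libraries of a single group. The RasG12V library that stood apart, set against its fellows, had 30 of 35 members above 0, with a median of 0.47. For the untransformed library that stood apart these were 22 of 35 and 0.04. Whether the offset between the knockouts exceeds such a spread between libraries was not tested. Psap had 714, 767 and 750.1 CPM in Cdk8 knockout libraries, against 572, 556 and 652 CPM in Cdk19 knockout libraries. The Psap values did not overlap, and its log2 fold change was 0.33 (SE 0.11). For Cd63 it was 0.37 (SE 0.16), for Ctsb 0.25 (SE 0.09) and for Lgmn 0.26 (SE 0.09).

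Calls in this comparison changed with the libraries fitted. Without RasG12V replicate 3 and untransformed replicate 3, which belong to neither knockout, 8 of 36 members were called, all higher in Cdk8 knockout cells, beside 5.32% of all genes. They were Ctsb, Lgmn, Man2b1, Sgsh, Npc2, Psap, Lamp2 and Cd63, with log2 fold changes of 0.18 for Lamp2 to 0.37 for Cd63, nearly the values seen with all libraries. Fitting the 2 knockouts alone called 4 members (Ctsb, Sgsh, Psap and Cd63). Leaving out RasG12V replicate 3 alone called Cd63 (adjusted p = 0.026, edgeR). For both of these fits the share of all genes called is not reported here. The median over the 36 members was 0.13 without the 2 libraries, and 31 were above 0. The median and signs over all genes in that fit are not reported here.

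Other genes, from 7 lists by function around the lysosome, moved in both directions in RasG12V cells. Over the 7 lists 34 of 131 tested genes passed, where 23.4% of all genes were called. Of 26 tested genes listed as further hydrolases and activators 3 rose and 3 fell. Among those that rose were Manea (log2 fold change 0.75), whose mannosidase is not a lysosomal one, and the carboxypeptidase gene Scpep1 (0.68). Galns, a sulfatase of keratan sulfate breakdown (-0.72), and Siae, a sialic acid esterase (-0.59), were among those that fell. Of 17 further membrane proteins 2 rose, among them Ostm1 (0.58), and 3 fell, including Vamp8 (-0.32) and Laptm4a (-0.28). Among 17 subunits and partners of the vacuolar ATPase, which acidifies the lysosome, 4 rose, namely Atp6v1a (0.45), Atp6ap2 (0.33), Atp6v0c (0.78) and Atp6v1c1 (0.23), and none fell. Of 20 genes of sorting to the lysosome, the clathrin heavy chain gene Cltc rose (0.33), while the sorting receptor gene Sorl1 (-0.91) and Gnptg (-0.53), a subunit gene of the enzyme that begins the mannose 6-phosphate tag, fell.

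Among 21 genes of TFEB and mTORC1 regulation 3 rose and 4 fell, where 23.4% of all genes were called. Mitf, a relative of Tfeb that binds the same letters, had 1.70, 1.74 and 1.86 CPM in Cdk8 knockout, 2.05, 1.97 and 2.28 CPM in Cdk19 knockout and 1.82, 1.55 and 2.20 CPM in RasG12V libraries, against 0.71, 0.681 and 0.447 CPM in untransformed libraries. Every transformed library was above the untransformed ones, and the log2 fold change in RasG12V cells was 1.61 (SE 0.23). Rragd, a Rag GTPase gene, had 0.437, 0.204 and 0.452 CPM in RasG12V libraries, against 0, 0.0309 and 0.0596 CPM in untransformed libraries, which are below the limit of 3 counts. Rragb (-0.47) and Lamtor4 (-0.47) were lower. Among 24 autophagy genes Wipi1 (0.76) and Wipi2 (0.32) rose and 3 fell, including the receptor gene Optn (-0.96) and Atg4a (-0.37).

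Of 14 genes listed as cathepsin inhibitors 6 could be tested. In RasG12V cells 2 rose and 2 fell, where 23.4% of all genes were called. The serpins among them, Serpinb1a, Serpinb6a and Serpinb9, are known mainly as inhibitors of serine proteases and not of the cysteine cathepsins described here. Cst6, which encodes the cystatin M inhibitor of Ctsl and legumain, had 3.79, 2.41 and 5.06 CPM in RasG12V libraries, against 0.462, 0.557 and 0.865 CPM in untransformed libraries, without overlap (log2 fold change 2.57, SE 0.41). Serpinb9 had 11.0, 11.4 and 9.28 CPM, against 27.3, 28.5 and 33.2 CPM in those groups (-1.49, SE 0.12). Serpinb6a rose by 0.36. Serpinb1a had 0.437, 0.45 and 1.57 CPM in RasG12V libraries, against 19.9, 17.4 and 0.865 CPM in untransformed libraries, so that untransformed replicate 3 fell into the RasG12V range. The abundant cystatins Cst3 and Cstb did not pass.

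Over these 7 lists the median log2 fold changes in RasG12V cells ran from -0.21 for genes listed as cathepsin inhibitors to 0.04 for the further membrane proteins, against 0.00 for all genes. Without the libraries that stood apart, where 40% of all genes were called, the counts of higher and lower genes were 5 and 9 for further hydrolases, 2 and 5 for membrane proteins, 4 and 5 for the vacuolar ATPase, 1 and 6 for sorting, 3 and 6 for TFEB and mTORC1 regulation, 2 and 5 for autophagy and 2 and 2 for inhibitors. No listed gene passed in either knockout against RasG12V cells, or between the knockouts, with all libraries in the edgeR fit. In Cdk8 knockout against RasG12V cells 1 of the 131 tested genes had an unadjusted p under 0.05. It was 8 in Cdk19 knockout against RasG12V cells and 8 between the knockouts. The share of all genes at that unadjusted threshold is not reported here. Without those 2 libraries, Siae alone was higher in Cdk19 knockout cells than in RasG12V cells (0.42), where 2.01% of all genes were called. In Cdk8 knockout against Cdk19 knockout cells, where 5.32% of all genes were then called, the 10 listed genes called were all higher, at 0.21 to 0.33. Among them were the hydrolase genes Gla, Asah1, Aga and Pla2g15, the membrane protein gene Laptm4b, the ATPase genes Atp6ap1 and Atp6ap2, Ap3d1 and Cstb.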

How the data were processed

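RNA-seq of 12 libraries (4 groups of 3) was analysed from gene counts. The authors deposited raw counts per gene in the layout that STAR writes, and the submitters' processing notes name STAR 2.6.0a and the build GRCm38.p6. The annotation release is not given in the sources used here. Reverse-strand counts were used, and reads mapping to several places or to overlapping genes are not in them. The labels call the RNA ribosome-depleted and name a TruSeq RNA kit. Symbols and exon lengths came from GENCODE M21, and promoter windows from RefSeq (GRCm38.p6).

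All libraries entered 1 fit in edgeR 4.0.16 (filterByExpr, TMM, robust quasi-likelihood test, R 4.3.3), with Benjamini-Hochberg adjustment over 14283 genes, a threshold of 0.05 and no replicate term. The procedure was also run on simulated counts, and the outcome is not reported here. Those counts held no library that stood apart, so that run cannot speak to this feature of the data. Alternatives were other scaling and filters, DESeq2 1.42.0, limma-voom 3.58.1, unstranded counts, a replicate block, only the groups compared, and leaving out libraries. Totals of 24823560 to 36879661 counts per library limit precision for genes with few reads. This limit covers counting error only.

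Members and lists were chosen with earlier results of these data known. Values per library are given for members that passed with a log2 fold change of at least 0.5 in RasG12V against untransformed cells, for members past the threshold in a knockout comparison, and for Tfeb and Tfe3, and further for Npc2, Grn, Psap and Ctsa after their values were seen. Up to 4 genes per pathway list with the smallest adjusted p are named, beside Cst3, Cstb and genes called without the 2 libraries that stood apart, and some listed genes are not reported here. Protein sequences were not used here.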

Additional observations from a re-analysis of the deposited data

How the results depend on the processing

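No called lysosomal gene changed direction under any alternative run, and 20 of 31 such calls kept their side of the threshold under all of them. Counts of members called moved most with the libraries. Without untransformed replicate 3 and RasG12V replicate 3 there were 22 in Cdk8 knockout, 20 in Cdk19 knockout and 21 in RasG12V cells against untransformed cells, 0 and 1 in Cdk8 and Cdk19 knockout against RasG12V cells, and 8 in Cdk8 against Cdk19 knockout cells. Leaving out 1 library at a time gave 6 to 15, 8 to 14 and 7 to 17 in Cdk8 knockout, Cdk19 knockout and RasG12V against untransformed cells, 0 in both knockouts against RasG12V cells, and 0 to 1 between the knockouts. Without RasG12V replicate 3 alone these were 15, 14, 17, 0, 0 and 1. In Cdk19 knockout against RasG12V cells, 1 member was called with no filter on low counts and 1 by DESeq2, Ctsc in both. Fitting the 2 knockouts alone called 4. The median log2 fold change of members in Cdk8 knockout against RasG12V cells, where none was called, was 0.13 without the 2 libraries and -0.08 with all. Shares of all genes called without the 2 libraries are given above. For the other fits here they are not reported, nor is the median over all genes without the 2 libraries. The cause of these moves in members was not tested.

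The replicate block gave 11, 13 and 12 members in Cdk8 knockout, Cdk19 knockout and RasG12V against untransformed cells and 0 in the other 3 comparisons. It added Naglu (-0.48) and Npc2 (0.39) in Cdk8 knockout cells and Npc2 (0.48), Ppt1 (0.40) and Lamp2 (0.34) in RasG12V cells. The share of all genes called with that block is not reported here. Deviations of same-numbered libraries correlated at -0.168 to 0.282, at 0.149 to 0.282 between RasG12V replicate 3 and replicate 3 of the other groups, and in no comparison above 0.1 for all 3 numbers. The labels state no batch, and the numbers were not taken as paired, although 6 of 12 libraries correlated best with a library of their own number. Whether same-numbered libraries share a batch was not tested. Few reads limit the precision for Gusb and Idua and for the 4 genes that did not pass the filter with all libraries.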
